A study of Mus musculus with 5 samples.

Results

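The genes described here are those of the PD-1 axis and of B7-CD28 costimulation: 4 ligands (Cd274, Pdcd1lg2, Cd80 and Cd86) and 4 receptors (Pdcd1, Cd28, Ctla4 and Icos). They were chosen by symbol, as the ligands and receptors around the antibody's target, and make up 8 of the 19505 genes with a named probe on the array. Each of the 8 has 1 probe. Expression was measured in whole subcutaneous melanomas grown in wild-type C57BL/6 mice aged 10 weeks. The tumours grew from injected B16.F10 cells, a melanoma line of the mouse, here with luciferase and green fluorescent protein. The 3 RG7112 tumours (replicates 1, 2 and 3) came from mice given anti-PD-1 and the MDM2 inhibitor RG7112, a small molecule that keeps MDM2 from binding and degrading p53. The 2 vehicle tumours (replicates 3 and 4) came from mice given anti-PD-1 and the carrier, corn oil with 5% DMSO. Anti-PD-1 was given to all 5 mice on days 1, 4 and 8 after tumour cell injection, so no group shows these genes without the antibody. Each tumour came from its own mouse. RG7112 or vehicle was given by mouth every 2 days for 6 days, with a start that the labels leave unclear, and the tumours were removed on day 13. By the labels, the tumours are a mixture of melanoma cells and infiltrating immune cells.

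T cells need a signal through CD28 beside that of their antigen receptor. CD80 and CD86 on antigen-presenting cells bind CD28, which promotes activation, and CTLA-4, which binds the same ligands more tightly and restrains it. PD-1, encoded by Pdcd1, is an inhibitory receptor of activated T cells, and its ligands are PD-L1 (Cd274), which many cell types induce in response to interferon gamma, and PD-L2 (Pdcd1lg2), which is found mainly on dendritic cells and macrophages. ICOS is a costimulatory receptor of activated T cells with a ligand of its own.

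Of the 8 genes 1 rose in RG7112 tumours, the ligand gene Cd274, and the other 7 did not pass the test (limma, adjusted p under 0.05 over all probes). Over the whole array, 1.42% of 22203 probes were called higher and 0.0315% lower. All 8 differences were above 0, against 44.8% of all probes, and their median was 0.36 on the log2 scale, against -0.03 for all probes. The 4 ligands differed by 0.09 to 1.54 (median 0.64) and the 4 receptors by 0.23 to 0.60 (median 0.28). In 5 of the 8 genes every RG7112 tumour lay above both vehicle tumours, while 10.8% of all probes separated in that direction. An unadjusted p under 0.05 was reached by 3 of the 8 (Cd274, Cd86 and Icos), all higher, against 4.83% of all probes higher and 4.06% lower. RG7112 replicate 1 had the highest signal of the 5 tumours in 7 of the 8 genes, and of 24.4% of all probes. This array also had the widest value distribution, with quartiles of 4.02 and 7.85, against 4.13 and 7.74 in vehicle replicate 4. Array medians were close to each other, from 5.76 to 5.81. Quantile normalization gives all 5 arrays the same distribution. The differences under it were 1.48 for Cd274, 0.94 for Cd86, 0.64 for Icos and 0.47 for Cd80. Those of Pdcd1, Cd28, Ctla4 and Pdcd1lg2 were 0.33, 0.30, 0.30 and 0.08. Whether the width has a part in the signals of single tumours was not tested.

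**Figure D1:**
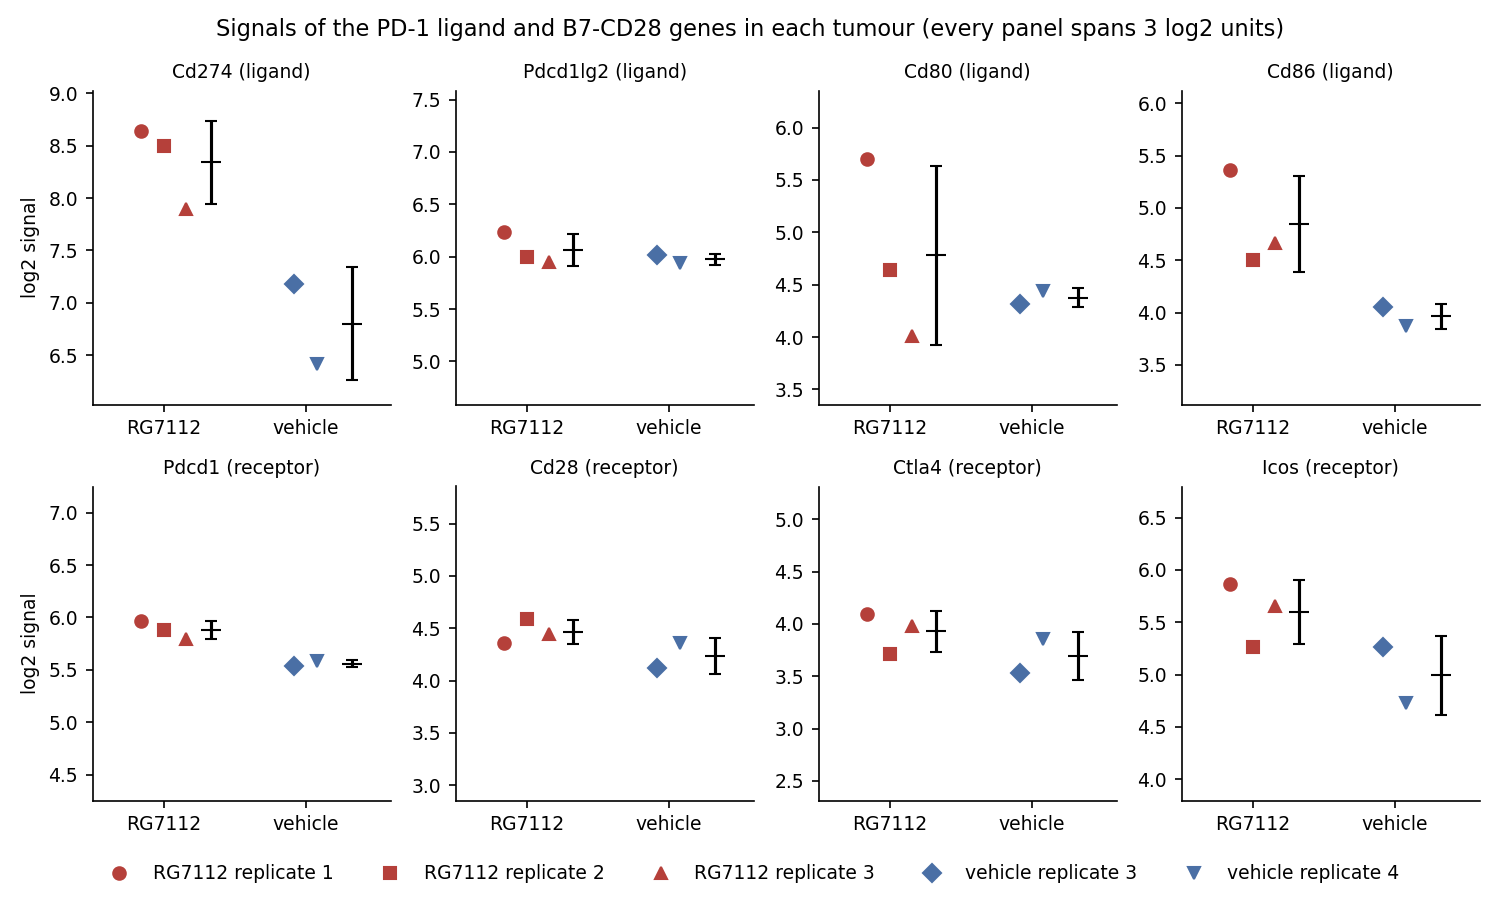
Log2 signal of each of the 8 genes in each tumour, with RG7112 tumours in red on the left and vehicle tumours in blue on the right of each panel, and mean ± SD in black (n = 3 and n = 2). Each panel spans the same height but has its own range. The groups are farthest apart for Cd274, and RG7112 replicate 1 stands highest in 7 of the 8 panels.

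Cd274 (probe TC1900000441.mm.2, chromosome 19) had log2 signals of 8.64, 8.50 and 7.89 in the RG7112 tumours, against 7.18 and 6.42 in the vehicle tumours. The lowest RG7112 tumour lay above the higher vehicle tumour, and the vehicle tumours differed from each other by more than RG7112 replicates 1 and 3 did. The difference was 1.54 ± 0.26 (SE) on the log2 scale, or 2.91-fold, with a 95% interval of 1.95-fold to 4.34-fold (limma adjusted p = 0.0122). Among all 22203 probes it ranked 199 by p-value. The call was lost without vehicle replicate 4, the tumour with the lowest signal (1.16, adjusted p = 0.267), and without RG7112 replicate 2 (1.46, adjusted p = 0.0513). In whole-tumour RNA, more cells that express a gene and more of its RNA per cell cannot be told apart.

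Pdcd1lg2 (probe TC1900000442.mm.2), the other PD-1 ligand gene and the next gene along chromosome 19, had signals of 6.24, 6.00 and 5.95 in the RG7112 tumours, against 6.01 and 5.94 in the vehicle tumours. The groups overlapped, and only RG7112 replicate 1 lay above both vehicle tumours. The difference was 0.09 ± 0.16 (SE; adjusted p = 0.936), with a 95% interval of 0.830-fold to 1.36-fold, which does not reach the lower end of the interval of Cd274. Taken within each tumour, Cd274 minus Pdcd1lg2 was 2.40, 2.50 and 1.94 in RG7112 tumours, against 1.17 and 0.48 in vehicle tumours. This within-tumour difference was higher in RG7112 tumours by 1.45 ± 0.34 (SE; 95% interval 0.37 to 2.53). With 5 tumours an exact permutation test has 10 splits and cannot give a p below 0.1, which is the value it gave (two-sided; 0.3 adjusted over the 6 pairs of genes compared).

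These neighbouring ligand genes are shown with the 250 bases before their transcription start, because one was called and the other was not. The sequences are RefSeq's, from GRCm38.p6, both on the plus strand, at chr19:29367188-29367437 for Cd274 and chr19:29410669-29410918 for Pdcd1lg2. Capitals mark GGG and CC separated by 5 bases of any kind, a loose form of the NF-kB motif, on either strand.
Cd274: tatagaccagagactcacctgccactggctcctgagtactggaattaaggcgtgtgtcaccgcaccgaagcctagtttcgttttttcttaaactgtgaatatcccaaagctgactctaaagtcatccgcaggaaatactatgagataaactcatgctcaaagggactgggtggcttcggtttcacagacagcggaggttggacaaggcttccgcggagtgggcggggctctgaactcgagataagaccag
Pdcd1lg2: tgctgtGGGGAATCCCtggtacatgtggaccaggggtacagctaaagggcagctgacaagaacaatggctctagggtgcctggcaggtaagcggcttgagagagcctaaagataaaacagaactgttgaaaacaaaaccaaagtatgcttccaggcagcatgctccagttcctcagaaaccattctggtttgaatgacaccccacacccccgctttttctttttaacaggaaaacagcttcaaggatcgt
Pdcd1lg2 held 1 such match, ending 234 bases before the start, and Cd274 held none. Of 32851 RefSeq promoter windows of the same length, 45.8% held that motif, so a match carries little information. Neither window held GAAA repeated after 2 bases of any kind, the core of the interferon-stimulated response element (2.98% of windows), or TTCNNNGAA, the gamma-activated site (7.02% of windows), on either strand. The same was true of Cd80, Pdcd1 and Ctla4, which with these 2 genes were the 5 of 8 genes that have a window in the table. Of these other 3 windows, that of Cd80 held 2 matches to the NF-kB letters and those of Pdcd1 and Ctla4 held 0. For the 2 interferon motifs only exact letters were counted, and few of all windows held them, so their absence carries little information too.

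Cd86 (probe TC1600001580.mm.2, chromosome 16), the B7-2 ligand of CD28 and CTLA-4, had the second-largest difference of the 8 genes. Its log2 signals were 5.37, 4.50 and 4.67 in the RG7112 tumours, against 4.05 and 3.88 in the vehicle tumours. All RG7112 tumours lay above both vehicle tumours, with replicate 1 well above the other RG7112 tumours. Both vehicle signals were dim, below 4.58, the 95th percentile of 1091 probes for olfactory receptors that serve as a guide to dim signal, so the size of the difference is less certain. It was 0.88 ± 0.24 (SE) on the log2 scale, with a 95% interval of 0.36 to 1.40, and it did not pass over all probes (adjusted p = 0.146). Without RG7112 replicate 1 it was 0.62 (adjusted p = 0.206). Without RG7112 replicate 2 it came closest to the threshold, at 1.05 (adjusted p = 0.0852).

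Cd80 (probe TC1600000553.mm.2, chromosome 16), the B7-1 ligand, had signals of 5.70, 4.64 and 4.01 in the RG7112 tumours, against 4.31 and 4.44 in the vehicle tumours. The RG7112 tumours spanned the vehicle tumours, with replicate 1 far above and replicate 3 below them. The difference of 0.41 ± 0.37 (SE; adjusted p = 0.846) rested on RG7112 replicate 1, without which it was -0.05 (adjusted p = 0.990). Its 95% interval ran from -0.40 to 1.21, so a change as large as that of Cd86 lies inside it. Cd86 minus Cd80, taken within each tumour, differed between the groups by 0.48 ± 0.41 (SE; 95% interval -0.82 to 1.77; exact permutation p = 0.5, two-sided, 0.6 adjusted over the 6 pairs).

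**Figure D2:**
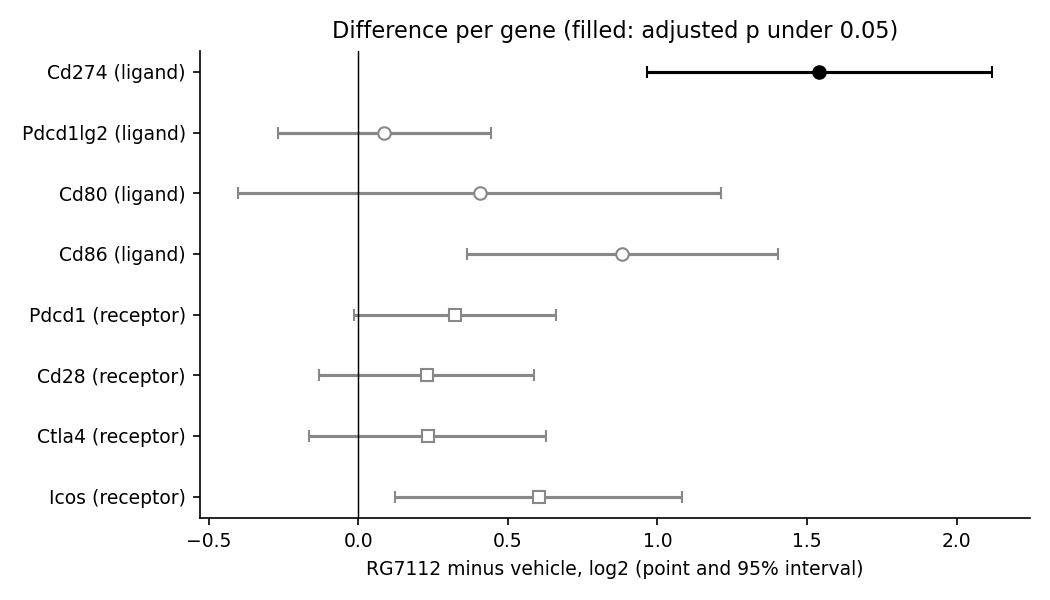
RG7112 minus vehicle on the log2 scale for each of the 8 genes, with the 95% interval from limma; circles are ligands, squares are receptors, and the filled symbol passed at adjusted p under 0.05. Only the interval of Cd274 is filled, those of Cd86 and Icos lie above 0 but did not pass over all probes, and the other 5 include 0.

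Among the receptors, Icos (probe TC0100000490.mm.2, chromosome 1), the costimulatory receptor of activated T cells, differed most. Its signals were 5.87, 5.27 and 5.65 in the RG7112 tumours, against 5.26 and 4.72 in the vehicle tumours. RG7112 replicate 2 and vehicle replicate 3 were nearly equal, so the groups touched without overlapping. The difference was 0.60 ± 0.22 (SE), or 1.52-fold with a 95% interval of 1.09-fold to 2.12-fold (adjusted p = 0.377). It was 0.34 without vehicle replicate 4 and 0.87 without vehicle replicate 3.

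Pdcd1 (probe TC0100002840.mm.2, chromosome 1), which encodes PD-1 itself, the target of the antibody, had signals of 5.96, 5.88 and 5.80 in the RG7112 tumours, against 5.54 and 5.58 in the vehicle tumours. Both groups were tight and did not overlap. The difference was small, 0.32 ± 0.15 (SE; adjusted p = 0.598), with a 95% interval of 0.989-fold to 1.58-fold. Cd274 minus Pdcd1, ligand against receptor, differed between the groups by 1.22 ± 0.38 (SE; 95% interval -0.0025 to 2.44; exact permutation p = 0.1, the smallest possible, and 0.3 adjusted over the 6 pairs).

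Cd28 (probe TC0100000476.mm.2, chromosome 1), the costimulatory receptor, had signals of 4.36, 4.59 and 4.44 in the RG7112 tumours, against 4.12 and 4.36 in the vehicle tumours. RG7112 replicate 1 and vehicle replicate 4 were almost level, and the difference was 0.23 ± 0.16 (SE; adjusted p = 0.776). Ctla4 (probe TC0100000485.mm.2, chromosome 1), its inhibitory relative, had 4.09, 3.71 and 3.98 in the RG7112 tumours, against 3.53 and 3.86 in the vehicle tumours. Here the groups overlapped, and the difference was 0.23 ± 0.18 (SE; adjusted p = 0.804). On the log2 scale their 95% intervals ran from -0.13 to 0.59 for Cd28 and from -0.16 to 0.63 for Ctla4. Cd28, Ctla4 and Icos lie next to each other on chromosome 1. Taken within each tumour, Cd28 minus Ctla4 differed between the groups by -0.0041 ± 0.24 (SE; exact permutation p = 1), Cd28 minus Icos by -0.37 ± 0.43 (exact permutation p = 0.4) and Ctla4 minus Icos by -0.37 ± 0.33 (exact permutation p = 0.4). Their 95% intervals were -0.76 to 0.75, -1.73 to 0.98 and -1.42 to 0.68, wide enough to hold unequal changes in either direction.

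**Figure D3:**
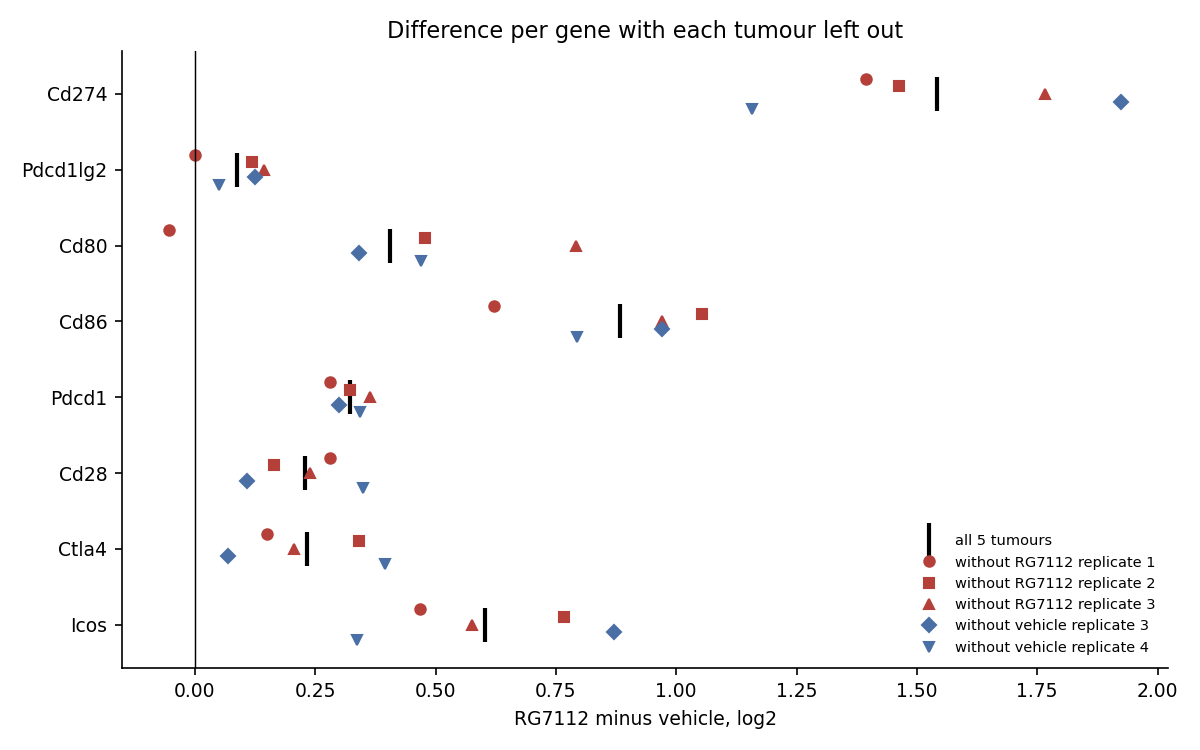
RG7112 minus vehicle on the log2 scale for each gene with all 5 tumours (black bar) and with each tumour left out in turn (symbols; red for an RG7112 tumour, blue for a vehicle tumour). Cd274 stays between 1.16 and 1.92, Cd80 is at -0.05 without RG7112 replicate 1, and Icos moves between 0.34 and 0.87 with the choice of vehicle tumour.

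Several of these signals were dim. As a guide to dim signal, the 1091 probes for olfactory receptors, genes with little expected expression in a tumour, had a median of 3.47 and a 95th percentile of 4.58 over the 5 arrays. The mean signal of Cd274 (7.73) lay above all of them, and those of Pdcd1lg2, Pdcd1 and Icos lay above 99.8%, 99.6% and 99.3% of them. Cd80 (4.62) and Cd86 (4.49) lay near the 95th percentile, above 95.5% and 93.8%, while Cd28 (4.37) lay above 92.1% and Ctla4 (3.83) above 76.2%. In each of these 4 genes both vehicle signals were below 4.58. Some RG7112 signals were below it too: those of Ctla4 in every replicate and those of Cd28 in replicates 1 and 3. The same held for Cd86 in replicate 2 and Cd80 in replicate 3. The sizes of these 4 differences are therefore less certain. Probes bind with different strength, so these positions do not order the genes by expression. Of the 8 genes 4 (Cd274, Pdcd1lg2, Pdcd1 and Icos) lay above the 40th percentile of all probes, and the other 4 were below it.

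Of 12 other genes of the B7 and CD28 families and their partners, 1 rose, 0 fell and 11 did not pass, with a median difference of 0.05. The riser was Vsir, which encodes the checkpoint protein VISTA, at 7.18, 7.26 and 6.96 in RG7112 tumours, against 5.98 and 6.00 in vehicle tumours. Its difference was 1.14 ± 0.16 (SE; adjusted p = 0.00393), and it was no longer called without vehicle replicate 3 (adjusted p = 0.0758) or 4 (adjusted p = 0.0974). Icosl, the ligand of ICOS, differed by 0.36 ± 0.15 (adjusted p = 0.514), and Cd200r1, an inhibitory receptor of myeloid cells, by 0.79 ± 0.24 (adjusted p = 0.236). Btla, an inhibitory receptor of lymphocytes, differed by 0.31 ± 0.19, Btn2a2, a butyrophilin, by 0.31 ± 0.18, and Cd160, a receptor of cytotoxic lymphocytes, by -0.36 ± 0.17, and none of the 3 passed. Btla and Btn2a2 were dim, with every signal below 4.58, the 95th percentile of olfactory receptor probes, so the sizes of their differences are less certain. Of 11 measured genes of TNF family costimulation 0 passed (limma), with a median of 0.16 and, by unadjusted p under 0.05, 2 genes higher. These were Cd40, which activates antigen-presenting cells, at 0.50 ± 0.17 (adjusted p = 0.303), and Tnfrsf9, a costimulatory receptor of activated T cells, at 0.47 ± 0.21 (adjusted p = 0.536).

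Of 21 measured genes that signal below the T cell receptor, PD-1 and CD28, 3 rose, 0 fell and 18 did not pass, with a median of 0.13. The adaptor Lcp2 had signals of 6.18, 6.15 and 5.91 in RG7112 tumours, against 4.26 and 4.14 in vehicle tumours, a difference of 1.88 ± 0.16 (SE; adjusted p = 0.000353) that stayed called with any tumour left out. Both vehicle signals of Lcp2 lay below 4.58, the 95th percentile of olfactory receptor probes, so the size of this difference is less certain. The exchange factor Vav1 differed by 1.28 ± 0.22 (adjusted p = 0.0119) and the kinase Prkcq, which acts downstream of CD28, by 0.81 ± 0.16 (adjusted p = 0.0268). The call of Vav1 was lost without RG7112 replicate 3 (adjusted p = 0.0629), vehicle replicate 3 (0.202) or vehicle replicate 4 (0.175), and that of Prkcq with any tumour left out (adjusted p from 0.0646 to 0.373). Lcp2 and Vav1 are also used by myeloid cells. The phosphatase Ptpn6 (SHP-1) differed by 0.65 ± 0.22 (adjusted p = 0.302), and the T cell receptor chains Cd3e and Cd3g by 0.75 ± 0.21 (adjusted p = 0.178) and 0.52 ± 0.17 (adjusted p = 0.309). The chains Cd3d and Cd247 differed by 0.39 ± 0.21 and -0.06 ± 0.17, and Zap70 and Lat by -0.06 ± 0.15 and -0.06 ± 0.19. Both vehicle signals of Cd3g and of Cd3d lay below 4.58, so the sizes of their differences are less certain. Of the 21 differences 13 were above 0.

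Among 18 measured genes that control PD-L1 expression, 2 rose, 0 fell and 16 did not pass, with a median of 0.11. Irf1, the transcription factor that carries the interferon gamma signal to Cd274, had 9.86, 9.78 and 9.58 in RG7112 tumours, against 8.81 and 8.24 in vehicle tumours. As for Cd274, vehicle replicate 4 was the lowest tumour and RG7112 replicate 1 the highest. Its difference was 1.22 ± 0.20 (SE; adjusted p = 0.00890), which did not pass without vehicle replicate 4 (adjusted p = 0.191). Stat2, a signal carrier of interferon receptors, differed by 0.89 ± 0.16 (adjusted p = 0.0181), a call lost when RG7112 replicate 1 or 3 or either vehicle tumour was left out (adjusted p = 0.0505, 0.0624, 0.327 and 0.116). Irf9, a partner of STAT2, differed by 0.65 ± 0.15 (adjusted p = 0.0786), Jak2, a kinase of the interferon gamma receptor that lies 4 genes from Cd274, by 0.47 ± 0.19 (adjusted p = 0.474), Stat3 by 0.35 ± 0.16 and Irf2 by 0.28 ± 0.16. Of 19 measured genes induced by interferon gamma, 13 rose, 0 fell and 6 did not pass, and their median difference was 1.26. Irf1 and Socs1 are in both lists. Among those that rose were the interferon-inducible GTPases Gbp3 (1.78 ± 0.22), Igtp (1.71 ± 0.22) and Gbp2 (1.54 ± 0.19), the T cell chemokines Cxcl9 (1.74 ± 0.22) and Cxcl10 (1.65 ± 0.21) and the peptide transporter subunit Tap1 (1.55 ± 0.19). Without vehicle replicate 4 the count of calls in this list was 0. List genes with no named probe here were not analysed here. The interferon gamma gene itself, Ifng, differed by 0.38 ± 0.28 (adjusted p = 0.790), and the genes of its receptor chains, Ifngr1 and Ifngr2, by -0.03 ± 0.15 and 0.01 ± 0.16 (these 3 were named after their values were seen). Ifng was dim, at 5.18, 4.57 and 4.29 in RG7112 tumours, against 3.92 and 4.69 in vehicle tumours. Its mean of 4.53 lay below 4.58, the 95th percentile of olfactory receptor probes, so the size of its difference is less certain. Set beside Cd274, 7 of the 19 induced genes differed by more than it did and 12 by less. Among the 19, 18 differed by more than Pdcd1lg2 did.

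**Figure D4:**
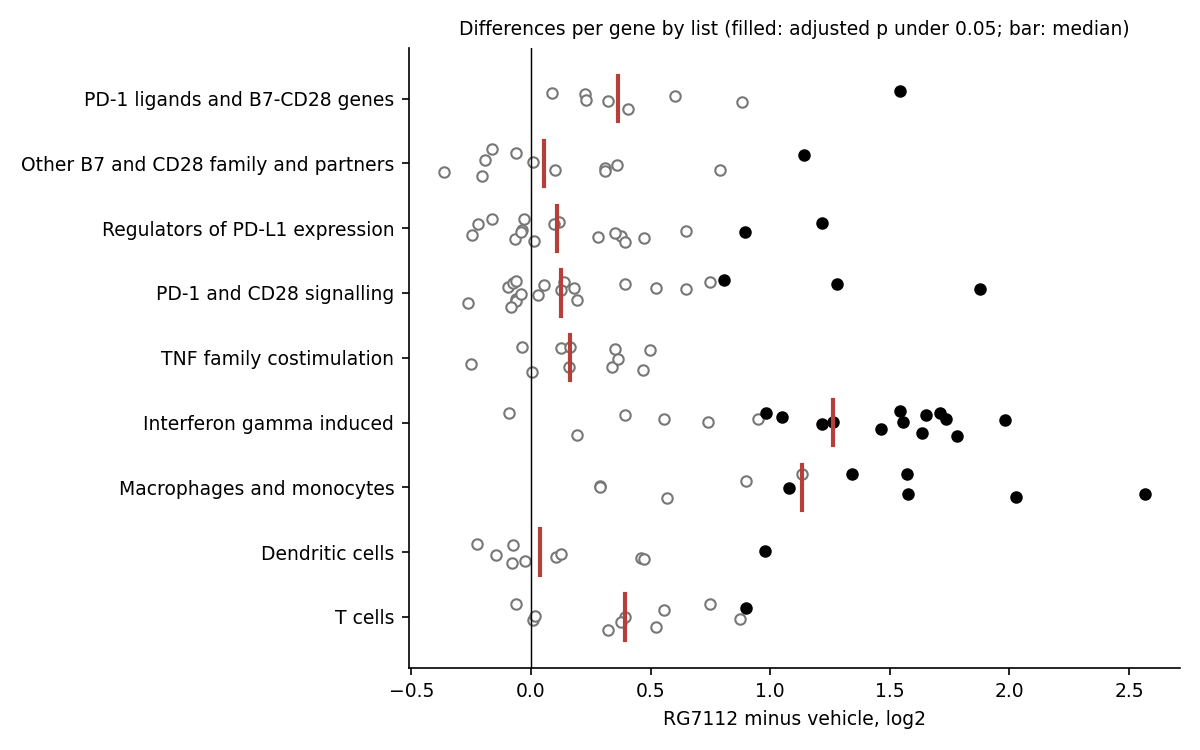
RG7112 minus vehicle on the log2 scale for each gene of the PD-1 and B7-CD28 set, of 5 pathway lists and of 3 cell type marker lists; filled points passed at adjusted p under 0.05 and red bars are medians. The medians of the interferon gamma list (1.26) and the macrophage list (1.13) lie farthest to the right, and that of the PD-1 and B7-CD28 genes is 0.36.

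Of 11 measured macrophage and monocyte markers 6 rose, 0 fell and 5 did not pass, with a median of 1.13 and mean log2 signals of 7.07 to 7.53 in RG7112 tumours, against 5.94 to 6.23 in vehicle tumours. Aif1 (2.57), Ly6c2 (2.03), Adgre1 (1.58), Itgam (1.57), Fcgr1 (1.34) and Csf1r (1.08) rose. For Aif1 the vehicle signals of 4.57 and 4.41 also lay below 4.58. All but Aif1 lost the call without vehicle replicate 4 (adjusted p from 0.0574 to 0.182). Of these 11 markers, 4 differed by more than Cd274, 8 by more than Cd86 and all 11 by more than Pdcd1lg2. Of 10 dendritic cell markers 1 rose, the integrin Itgax (0.98 ± 0.20, adjusted p = 0.0376), which macrophages express too, 0 fell and 9 did not pass. The median was 0.04, and mean signals were 4.91 to 5.14 in RG7112 tumours, against 4.82 to 4.92 in vehicle tumours. The call of Itgax was lost without RG7112 replicate 1 (adjusted p = 0.0923) or 2 (0.109) and without either vehicle tumour (0.434 without replicate 3 and 0.285 without replicate 4). The dendritic cell markers Xcr1 and Clec9a were dim, and differed by 0.46 ± 0.18 and 0.13 ± 0.18. Zbtb46 differed by -0.23 ± 0.16 and Cd209a by -0.15 ± 0.21, and those of Batf3, Siglech and Ccr7 were also below 0 (-0.08, -0.08 and -0.03). Of the 10 differences in this dendritic cell list, 5 were above 0. The part of these cells in the values of the ligand genes was not tested.

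Of 11 measured T cell markers 1 rose, Cd8b1 (0.90 ± 0.18, adjusted p = 0.0314), a call lost with any tumour left out (adjusted p from 0.0566 to 0.425). Cd8a (0.87 ± 0.25), Cd3e (0.75 ± 0.21), Thy1 (0.56 ± 0.17) and Cd3g (0.52 ± 0.17) also had an unadjusted p under 0.05 (limma). None of the 11 fell, 10 did not pass and 10 differences were above 0. The median was 0.39, and mean signals were 5.43 to 5.58 in RG7112 tumours, against 5.03 to 5.12 in vehicle tumours. The 4 receptor genes lay inside the range of these markers, which ran from -0.06 to 0.90. Of the 11 markers 3 differed by more than Icos, 7 by more than Pdcd1, and 8 each by more than Cd28 and Ctla4. The markers Cd3d, Cd3e, Cd3g and Cd247 are also in the list of genes that signal below the T cell receptor, PD-1 and CD28. Of 5 measured regulatory T cell markers 0 passed (limma; 1, Ikzf2, had an unadjusted p under 0.05), with a median of 0.35 and mean signals of 4.93 to 5.17 in RG7112 tumours, against 4.65 to 4.78 in vehicle tumours. Member means in this list ran from 3.32 to 6.26, and Il2ra and Ccr8 were dim. Tnfrsf4 and Tnfrsf18 are also in the list of TNF family costimulation. The part of T cell numbers in the receptor values was not tested. B cell markers, another source of CD80 and CD86, were dim, with member means from 3.85 to 4.54, and all 5 measured differences were below 0 (median -0.16; 0 called in limma, and 0 with an unadjusted p under 0.05). The 8 melanocyte lineage markers, which the tumour cells express, were bright (member means from 10.4 to 13.0) and had a median difference of 0.07 (0 called in limma, and 0 with an unadjusted p under 0.05). Of 5 endothelial markers, cells that can also carry PD-L1, 1 rose, the VEGF receptor Kdr (1.01 ± 0.19, adjusted p = 0.0203), with a median of 0.63 and mean signals of 6.69 to 6.85 in RG7112 tumours, against 6.04 to 6.23 in vehicle tumours. Cdh5 (0.75 ± 0.18), Emcn (0.63 ± 0.17) and Pecam1 (0.41 ± 0.17) had an unadjusted p under 0.05 (limma) but did not pass. Tek differed by 0.25 ± 0.16. The call of Kdr was lost without RG7112 replicate 2 or 3 and without either vehicle tumour (adjusted p from 0.0796 to 0.370). The 6 NK cell markers had a median of 0.25 and the 5 measured fibroblast markers one of 0.14, and 0 of either passed in limma (2 and 0 had an unadjusted p under 0.05). Most NK cell markers were dim. Their member means ran from 3.37 to 4.91, and those of Ncr1, Klrb1c, Eomes and Gzma lay below 4.58, the 95th percentile of olfactory receptor probes.

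The genes whose pattern over the 5 tumours was nearest to that of Cd274 were Lilr4b, a receptor of myeloid cells, Tlr13, a Toll-like receptor, and Itgam, the CD11b integrin chain. The measure was the root mean square difference between log2 signals after each gene's own mean was taken off, and it was 0.0891, 0.125 and 0.133 for these genes among 18540 candidates. Lilr4b had 8.27, 8.09 and 7.41 in RG7112 tumours, against 6.74 and 6.20 in vehicle tumours. Of the other 7 genes of the set Cd86 was nearest to Cd274, at 0.463, and Ctla4 farthest, at 0.783. Nearest to Cd86 were Cd8a (0.0910), a chain of the T cell coreceptor, Havcr2 (0.103), which encodes the checkpoint receptor TIM-3, and Gpr35 (0.106). In these genes, as in Cd86, RG7112 replicate 1 stood above the other RG7112 tumours, and for example Havcr2 had 6.42, 5.36 and 5.51 in RG7112 tumours, against 4.81 and 4.84 in vehicle tumours. Nearest to Icos were Polrmt, the mitochondrial RNA polymerase (0.0817), Plxdc2 (0.0901) and Klrk1 (0.0952), which encodes the NKG2D receptor of cytotoxic lymphocytes. With 5 tumours many genes can share a pattern, and nearness is only a description.

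**Figure D5:**
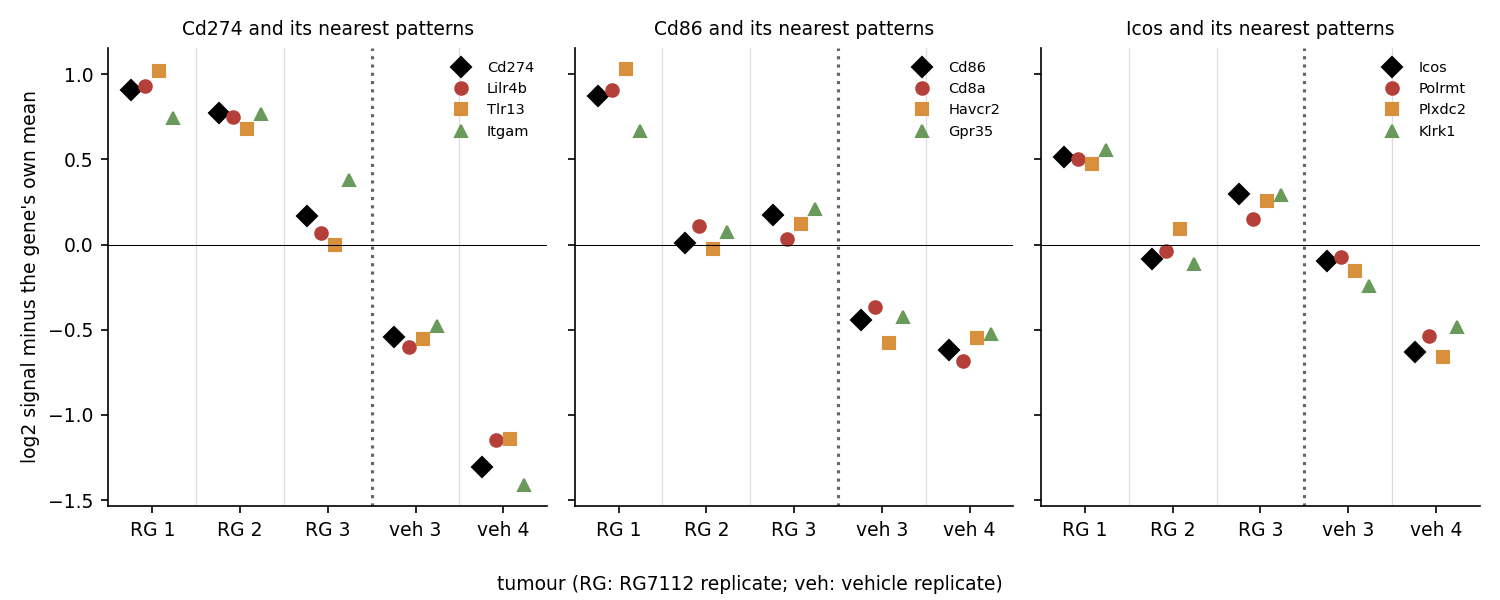
Log2 signal minus each gene's own mean over the 5 tumours, for Cd274, Cd86 and Icos (black diamonds) and the 3 genes nearest to each in pattern; RG7112 tumours are left of the dotted line and vehicle tumours right of it. Cd274 and its nearest genes are lowest in vehicle replicate 4, and Cd86 and its nearest genes are highest in RG7112 replicate 1.

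Of the 8 genes only Cd274 passed the test, and no other measured gene near them on the chromosomes did. Of the 40 other protein-coding genes within 4 genes of any of the 8 on either side, 38 were measured and 0 were called (limma). Of these 38, 6 had an unadjusted p under 0.05, against 4.83% of all probes higher and 4.06% lower. Differences above 0 were found in 18 of the 38, against 44.8% of all probes. Their median difference was -0.03.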

How the data were processed

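Whole-tumour RNA was measured on Affymetrix Clariom S arrays, 1 per mouse. The deposited values are log2 signals per probe; the submitters' processing notes name oligo and RMA, without versions or a genome build. The log2 scale was checked on the range of the values. Of 22203 probes, 19572 have 1 gene symbol in the platform annotation, 0 several and 2631 none. The probe with the highest mean stood for a gene.

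RG7112 minus vehicle was fitted over all probes with limma 3.58.1 (lmFit and eBayes, R 4.3.3; 3 residual and 7.92 prior degrees of freedom), with Benjamini-Hochberg adjustment, no filter on dim probes and a threshold of 0.05. The fit was tested on simulated data. Intervals are 95% moderated intervals. Differences between members used pooled-spread SEs and exact permutation over 10 splits.

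The members, the 14 gene lists and the naming rule were chosen with earlier results of these data known. The rule named all members, up to 6 genes per list with the smallest p, and the 3 nearest patterns. Promoters are RefSeq's (GRCm38.p6). The number of arrays limits the precision.

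Alternatives were quantile and cyclic loess normalization, an intensity trend with robust fit, array weights, leaving out probes below the 40th percentile, adjusted p under 0.10, a 1.5-fold minimum and leaving out each tumour.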

Additional observations from a re-analysis of the deposited data

How the results depend on the processing

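The call of Cd274 held under quantile and cyclic loess normalization, an intensity trend with robust fit, array weights and the filter on dim probes, with differences from 1.48 to 1.57 (adjusted p from 0.00221 to 0.0204). With each tumour left out it ran from 1.16 to 1.92, and the number of the 8 genes called was 0 or 1. No other member was called under any alternative, adjusted p under 0.10 included. Leaving out a tumour gave ranges of -0.00011 to 0.14 for Pdcd1lg2 and -0.053 to 0.79 for Cd80, both below 0 without RG7112 replicate 1. Cd86 ran from 0.62 to 1.05, Icos from 0.34 to 0.87, Pdcd1 from 0.28 to 0.36, Cd28 from 0.11 to 0.35 and Ctla4 from 0.07 to 0.40. Over all probes 65 to 268 were then called higher, against 315, with 65 without vehicle replicate 4 and 151 without vehicle replicate 3, where the lone vehicle tumour is assumed to vary like the others. Calls lower were 0 to 5 with a tumour left out, against 7. They were 16 with array weights, 4 with cyclic loess normalization, 2 without dim probes (fewer probes tested) and 29 at adjusted p under 0.10; the cause of the first 2 was not tested. Without dim probes Cd80, Cd86, Cd28 and Ctla4 were not in the fit. Cd28 minus Ctla4, near 0, turned to 0.0030 with quantile and 0.0088 with cyclic loess normalization, and ran from -0.18 to 0.13 with a tumour left out. Cd28 minus Icos then ran from -0.76 to 0.012, and Ctla4 minus Icos from -0.80 to 0.059. Of the 24 genes named here and called, 22 lost the call without at least 1 tumour, and Lcp2 and Aif1 did not. No member has several probes, so a mean over probes was not run. No paired analysis was run, because each tumour came from its own mouse and the labels give no pairing between the groups.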
